A study of Mus musculus with 24 samples.

Results

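The comparison is between 2 batches of P14 mouse brain libraries that carry the profile of forebrain tissue. Of the 24 libraries of the series, 7 met a marker rule at postnatal day 14 (P14): Cbln3, a gene of cerebellar granule cells, below 100; Emx2, a transcription factor of the developing cortex and hippocampus, from 250 to 400; and Omp, a gene of olfactory sensory neurons, below 100. The first batch holds 4 of them, wild-type (WT) libraries 1 and 2 and Shank2 knock-out (KO) libraries 2 and 3. The second batch holds 3, WT libraries 4 and 6 and KO library 5.

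The study sequenced RNA from the brains of C57BL/6N mice at P14 and P25, wild type or Shank2 knock-out, in 4 groups of 6. All were naïve, meaning that no drug was given, and the tissue of every library is labelled brain. The labels mark 12 of the 24 libraries as a second batch, and the 12 without that mark were taken as the first. The labels used here give neither the allele of the knock-out nor the sex of the mice. The design text counts mice but does not tie each library to its own mouse, so p-values measure the spread between these libraries. WT 2 and KO 2, and likewise WT 4 and KO 5, share the start of their library names. The labels do not say what that marks, and the fit treats the 7 libraries as independent.

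The striatum lies below the cortex and is built mostly of GABAergic projection neurons, which carry dopamine receptors of the D1 type in the direct pathway and of the D2 type in the indirect pathway. Cortex and hippocampus are led by glutamatergic neurons instead. Tissue under the cortex also includes the thalamus, the hypothalamus and the lining of the ventricles. In bulk RNA, fewer cells of a type and less RNA per cell cannot be told apart.

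Values are reads per gene divided by 1 size factor per library, and they are listed in the order WT 1, WT 2, KO 2 and KO 3 for the first batch and WT 4, WT 6 and KO 5 for the second. Cbln3 was 40.3, 22.3, 42.3 and 27.1 in the first batch and 19.2, 30.3 and 31.5 in the second. Emx2 ran from 279 to 386 and Omp from 6.30 to 22.8 over the 7 libraries. These values chose the libraries and are given as description. The excluded P14 libraries nearest to each limit had 6083 for Cbln3 (WT 3), 74.9 and 1192 for Emx2 (KO 1 and WT 5) and 457 for Omp (KO 6). Of 16 markers of hindbrain and serotonin neurons 1 reached a mean of 10, and no Hox gene of 39 did.

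Shank2, the gene removed in the knock-out and a scaffold of excitatory synapses, had 7412 and 8218 in WT and 3951 and 3886 in KO in the first batch. In the second batch it had 10738 and 12778 in WT and 6458 in KO. Each KO library was below each WT library of its own batch, as labelled, but KO 5 came closer to the WT libraries of the first batch than to the other KO libraries. The second batch was 0.64 higher on the log2 scale (SE 0.07, adjusted p = 0.00173 in limma), so the batch difference of Shank2 came near its genotype difference of -0.94 (adjusted p = 0.0108).

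In a limma fit of log2(value + 1) with genotype as covariate, 3371 of 17750 genes with a mean of at least 10 passed at an adjusted p below 0.05, which is 19%. Of these, 2217 were higher in the second batch (12.5% of genes tested) and 1154 lower (6.5%). The called rises were small, with a median of 0.33, and the called falls larger, with a median of -0.61. Only 85 of the called rises exceeded a log2 difference of 1, against 371 of the called falls. The median over all genes tested was 0.02. Values of the 2 batches did not overlap at 5248 genes (29.6%).

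The genotype term of the same fit called 1 gene, Shank2 (0.00563% of genes tested, 1636 at an unadjusted p below 0.05), and none when WT 1, WT 2, KO 2, KO 3 or KO 5 was left out. A batch difference that itself differed between the genotypes was called at 2 genes (0.0113% of genes tested, 969 at an unadjusted p below 0.05), Prph and C1ql2, both through the single library KO 5. All 3371 genes called for batch had the same sign of the batch difference in WT and in KO, where 73.1% of all genes tested did. The call rests on both genotypes, so that count is a description. The count of calls rested on some libraries more than on others: 1013 genes passed without KO 5 and 1300 without WT 1.

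A principal component analysis separated the batches on its leading axis, which took up 52% of the variance. Scores there were -36.8, -26.0, -28.2 and -21.3 in the first batch and 31.8, 33.7 and 46.9 in the second. The second component, with 15.9%, set WT 6 (34.1) against KO 5 (-30.8) within the second batch. Over all genes, batch given genotype took up 51.3% of the sum of squares, genotype given batch 12.3%, and 37.1% belonged to neither.

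**Figure D1:**
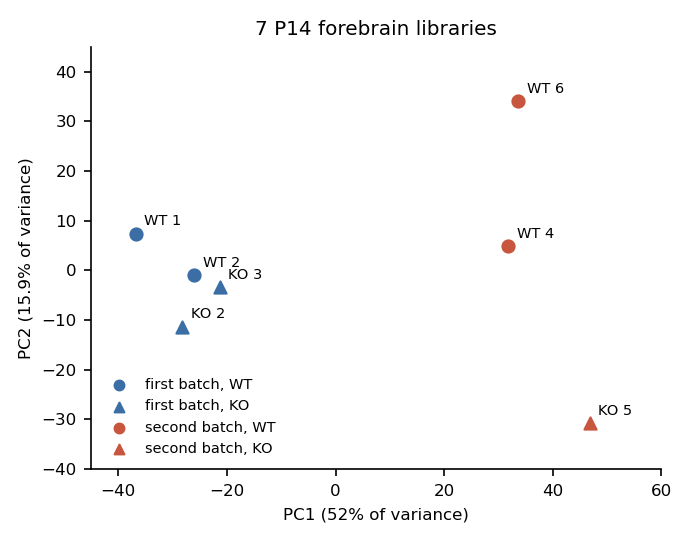
The 7 P14 forebrain libraries on the first 2 principal components of log2(value + 1), with each component's share of the variance on its axis; colour gives the batch and shape the genotype. The first component (52%) places the 4 first-batch libraries between -36.8 and -21.3 and the 3 second-batch libraries between 31.8 and 46.9.

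Striatal markers were lower in the second batch. Ppp1r1b, which encodes DARPP-32, the phosphatase inhibitor that marks striatal projection neurons, had 5769, 5814, 5721 and 5343 in the first batch and 721, 1548 and 1544 in the second. Drd1, the D1 dopamine receptor of the direct pathway, had 822, 921, 977 and 709 against 280, 257 and 429. Both genes framed the comparison and are given with no test. The second-batch means were 22.4% and 37.6% of the first-batch means, and no library of one batch reached into the range of the other.

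The indirect-pathway list had the lowest median of the 3 striatal lists. Adora2a, an adenosine receptor, had 1279, 1392, 1407 and 1012 in the first batch and 127, 181 and 161 in the second. It fell by 3.03 on the log2 scale (SE 0.15, adjusted p = 3.885e-05). Drd2, the D2 dopamine receptor, had 515, 459, 459 and 288 against 64.5, 99.4 and 63.0 (-2.56, adjusted p = 0.000295 in limma), and Penk, the precursor of enkephalin, had 4533, 4952, 4325 and 3836 against 521, 1116 and 716 (-2.58, adjusted p = 0.000427). Every first-batch library was above every second-batch library for these 3 genes. Six3, a transcription factor of the same lineage, had 515, 373, 372 and 228 against 6.0, 78.8 and 11.5 (-4.34). It overlaps the antisense gene Six3os1, which fell with it, and without a stated strand setting their reads cannot be told apart. Penk overlaps an antisense gene too, A830012C17Rik. Of the 6 tested members of this list 5 fell (6.5% of all genes tested), with a median of -2.57.

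With Drd1 left out, because it framed the comparison, 3 of 6 direct-pathway genes fell (6.5% of all genes tested), with a median of -0.29. Without KO 5, 1 of 6 fell. Tac1, the precursor of substance P, had 1416, 1230, 1227 and 1012 against 597, 799 and 620 (-0.90, adjusted p = 0.0026). Isl1, a transcription factor that striatal and cholinergic neurons share, had 225, 144, 151 and 65.5 against 1.0, 31.5 and 4.2 (-4.40, adjusted p = 0.00883 in limma). The call for Isl1 was lost without KO 5 (adjusted p = 0.058). Pdyn, the precursor of dynorphin, did not pass and had 1164, 1162, 1261 and 1164 against 1166, 1448 and 1698 (0.29, adjusted p = 0.0687). Chrm4 and Eya1 of the same list did not pass either (0.20, adjusted p = 0.161, and 0.21, adjusted p = 0.128). Both were higher in every second-batch library than in any first-batch library.

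Of the genes shared by both pathways, Ppp1r1b left out, 15 of 19 fell and none rose (6.5% and 12.5% of all genes tested), with a median of -0.97. Rgs9, a regulator of G protein signalling enriched in striatum, had 2415, 2471, 2219 and 1747 in the first batch and 560, 565 and 584 in the second (-1.97, SE 0.10, adjusted p = 3.885e-05). Syndig1l and Scn4b, a membrane protein enriched in the caudate and a sodium channel subunit, fell by 2.43 and by 2.36. The phosphodiesterase Pde10a had 5628, 5799, 5770 and 4736 against 2326, 2539 and 3233 and fell by 1.02. Ptpn5, the striatum-enriched phosphatase STEP, had 6979, 7300, 6589 and 6582 against 6321, 6783 and 6749, and its batches overlapped (-0.06, adjusted p = 0.475).

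Over the 3 striatal lists together, without Ppp1r1b and Drd1, 23 of 31 tested members were lower and 0 higher (6.5% and 12.5% of all genes tested), with a median of -0.94 against 0.02 over all genes. The second-batch mean as a percentage of the first ran from 8.36% to 62.4% over those 23, with a median of 42.2%, and was 51.8% at the median of all 31. The members thus differed in how far they fell, and no 1 percentage describes them all.

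**Figure D2:**
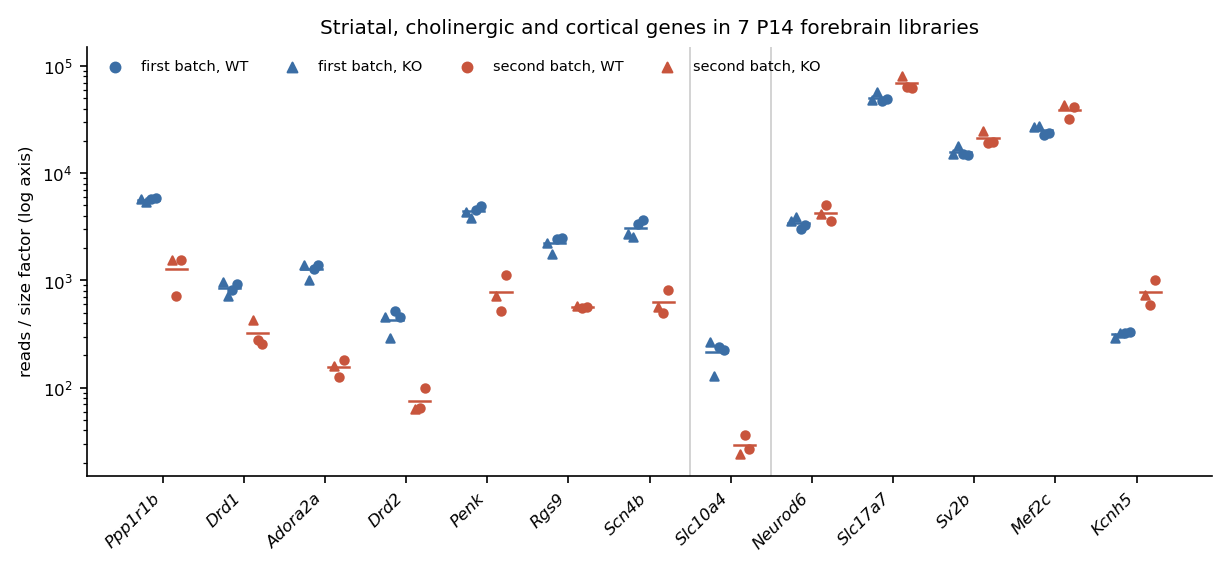
Values (reads divided by the size factor, log axis) of 13 genes in the 7 libraries, by batch, with a bar at each batch mean. Ppp1r1b lies between 5343 and 5814 in the first batch and between 721 and 1548 in the second, while Mef2c and Kcnh5 lie higher in all 3 second-batch libraries.

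Other genes of tissue beneath the cortex were lower too. Of 7 tested markers of cholinergic neurons, found in the striatum and the basal forebrain, 6 fell (6.5% of all genes tested), with a median of -1.91. Of the 7, 1 reached the mean of 10 only through the first batch. Among those with a mean of at least 10 in both batches, 5 of 6 fell. Slc10a4, a vesicular transporter of these neurons, had 242, 227, 265 and 128 against 36.3, 26.7 and 24.1 (-2.87, SE 0.25, adjusted p = 0.000525). Slc5a7, which takes up choline, and Chat, which makes acetylcholine, fell by 1.43 and by 1.91.

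Hypothalamic markers fell at 8 of 16 tested genes and rose at none (6.5% and 12.5% of all genes tested), with a median of -1.78. The falls numbered 4 without WT 1 and 4 without KO 5. Of the 16, 5 reached the mean of 10 only through the first batch. Where both batches had a mean of at least 10, 6 of 11 fell. Hap1, a huntingtin-associated protein abundant in the hypothalamus, had 10579, 8374, 9814 and 6086 against 3440, 3708 and 4147 (-1.20, SE 0.17, adjusted p = 0.00368). Trh, the precursor of thyrotropin-releasing hormone, had 570, 337, 282 and 225 against 76.6, 111 and 141 (-1.67). Avp, the vasopressin precursor, had 431, 134, 219 and 37.3 against 3.0, 38.8 and 1.0. The batches overlapped for Avp (-4.75, adjusted p = 0.00898), and the call was lost without KO 5 (adjusted p = 0.0751).

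Thalamic markers fell at 6 of 14 and rose at 1 (6.5% and 12.5% of all genes tested), with a median of -0.53. They fell at 3 without WT 1 or without KO 5. With a mean of at least 10 in both batches, 5 of 13 fell. Tcf7l2, a transcription factor of thalamic neurons, had 840, 689, 319 and 408 against 299, 198 and 166 (-1.43, SE 0.18, adjusted p = 0.00244), so its 2 KO libraries of the first batch lay well below the WT ones. Slc6a3, the dopamine transporter of midbrain neurons, had 346, 83.8, 21.7 and 30.5 against 6.0, 3.6 and 14.7 (-3.25). It reached the mean of 10 only through the first batch, so its call is not read. The call was lost when WT 1, WT 2, WT 4 or WT 6 was left out (adjusted p from 0.0608 to 0.0759). Of the 6 tested midbrain dopamine markers 3 fell, and 1 without WT 6. With a mean of at least 10 in both batches, 2 of 5 fell.

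Ependymal cells line the ventricles and carry motile cilia. Of their 11 tested markers 9 fell (6.5% of all genes tested), with a median of -1.52. The falls numbered 3 without WT 1 and 2 without KO 5, and 2 of the 11 reached the mean of 10 only through the first batch. Among the others 8 of 9 fell. Hydin, a protein of the ciliary axoneme, had 114, 97.2, 74.9 and 66.6 against 45.4, 27.9 and 24.1 (-1.53, SE 0.21, adjusted p = 0.00295). The adenylate kinase Ak7 fell by 2.81. Rsph1, a radial spoke protein, had 113, 114, 113 and 104 against 74.6, 78.8 and 63.0 (-0.65, adjusted p = 0.0138), a call lost without KO 5 (adjusted p = 0.108). Of 19 choroid plexus markers 1 fell, beside 6.5% of all genes tested. Ttr, the most abundant transcript of the choroid plexus, had 16014, 15296, 8725 and 6905 against 1684, 51401 and 110 (adjusted p = 0.153). Within the second batch the summed choroid plexus level ran from 7371 in KO 5 to 75879 in WT 6.

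Cd4, best known as a T cell co-receptor, had 335, 311, 257 and 241 against 14.1, 19.4 and 26.2 (-3.80, SE 0.23, adjusted p = 7.807e-05). Dlk1, an imprinted gene of hypothalamus and midbrain, had 823, 294, 281 and 195 against 28.2, 121 and 12.6 (-3.47, adjusted p = 0.00468). Both are among the 10 largest falls of genes whose mean reached 100 in the higher batch. The batches did not overlap at either gene.

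Several genes of cortical glutamatergic neurons rose. Neurod6, a transcription factor of these neurons that framed the comparison and is not tested, had 3025, 3323, 3617 and 3899 in the first batch and 5049, 3552 and 4209 in the second, so WT 6 lay within the range of the first batch. Slc17a7, the vesicular glutamate transporter VGLUT1, had 47097, 48805, 48408 and 57428 against 64028, 61846 and 80857 (0.48, adjusted p = 0.00589).

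Of 15 tested markers of cortical and hippocampal excitatory neurons, Neurod6 left out, 9 rose and none fell (12.5% and 6.5% of all genes tested), with a median of 0.33, and 5 rose without KO 5. Mef2c, an activity-regulated transcription factor, had 22482, 23775, 27217 and 27355 against 31894, 41241 and 43629. It rose by 0.66 (SE 0.08, adjusted p = 0.00248 in limma) and the synaptic vesicle protein Sv2b by 0.46. Of 16 hippocampal markers 0 were higher and 1 lower, with a median of -0.62. The 1 lower gene was Lhx9, which is also in the thalamic list. Upper-layer markers rose at 4 of 12 and fell at none, and rose at 2 when WT 1, KO 2, KO 3, WT 6 or KO 5 was left out. Kcnh5, a potassium channel, had 324, 332, 292 and 324 against 590, 1001 and 727 (1.23, SE 0.16, adjusted p = 0.00271). The POU transcription factor Pou3f3 rose by 0.50, and Cux2, an upper-layer transcription factor, had 0.48 with an adjusted p of 0.0366 that was lost when WT 1, KO 2, KO 3, WT 6 or KO 5 was left out.

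Of 14 deep-layer markers 2 were higher and 3 lower, beside 12.5% and 6.5% of all genes tested. Without WT 4, 5 were lower. Etv1, a layer 5 transcription factor, had 2041, 2204, 2373 and 2530 against 4234, 5610 and 3214 (0.88, adjusted p = 0.00916). Foxp2, expressed in layer 6 and in striatum, had 971, 925, 921 and 780 against 477, 497 and 530 (-0.85, adjusted p = 0.00136), and Pcp4, a calmodulin-binding peptide, fell by 0.84. Of 14 interneuron markers 1 rose and 5 fell, among them Gad1, the GABA-making enzyme that striatal neurons also use (8607, 9096, 7612 and 7211 against 6529, 7112 and 5889, -0.36, adjusted p = 0.00389). The falls numbered 2 without WT 1 and 3 without WT 2. Dlx6 and Pbx3, transcription factors of striatal and olfactory bulb neurons, fell by 1.09 and by 1.03.

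Postsynaptic scaffold and glutamate receptor genes, the family of partners of Shank2, rose at 14 of 21 and fell at none (12.5% and 6.5% of all genes tested), with a median of 0.35. The rises numbered 9 without WT 1 and 8 without KO 5. Homer2, a scaffold that binds Shank proteins, had 2414, 2507, 2667 and 2826 against 3809, 3873 and 3820 (0.58, SE 0.06, adjusted p = 0.000868). Dlg2 (PSD-93) and the NMDA receptor subunit Grin2b rose by 0.52 and by 0.50, Shank1 by 0.39 (adjusted p = 0.00319), and Shank3 and Dlg4 (PSD-95) by 0.35 each. Shank3 had 8481, 9234, 9310 and 8782 against 10281, 10572 and 12906, and its call was lost without WT 1 (adjusted p = 0.0547) or KO 5 (0.0864). The Dlg4 call was lost without KO 5 (0.0564).

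Of 23 immediate early genes 5 rose and none fell, beside 12.5% and 6.5% of all genes tested. That count ran from 2 to 9 when 1 library was left out, with 2 without WT 1 or WT 2, 3 without WT 6 and 9 without WT 4. Egr3, a transcription factor induced by neuronal activity, had 844, 1030, 1097 and 1138 against 1496, 1842 and 2326 (0.92, SE 0.10, adjusted p = 0.00148), and the phosphatase Dusp6 rose by 0.38. Fosb had 0.62 (adjusted p = 0.036), lost when any of WT 1, WT 2, KO 2, WT 6 or KO 5 was left out. Circadian clock genes rose at 7 of 16 and fell at 1, but rose at 1 without KO 5, at 2 without WT 1, at 4 without WT 2, KO 2 or WT 6, and at 4 with TMM scaling. The repressor Cry2 rose by 0.36 (adjusted p = 0.00468), while Bhlhe41, another repressor, fell by 0.55 (adjusted p = 0.00714, and 0.0652 without KO 5). The labels used here do not give the hour of dissection.

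Calls in the glial and vascular lists are given beside 12.5% higher and 6.5% lower over all genes tested. Of 15 astrocyte markers 1 rose, the glutamate transporter Slc1a2 (85228, 79855, 73362 and 87025 against 117091, 129210 and 114788, 0.55, adjusted p = 0.00367). Of 16 microglial markers 1 fell, and of 16 endothelial markers 1 rose. Myelinating oligodendrocytes had a median of -0.92, but 3 of 18 markers fell, and 0 without WT 1 or KO 5, 1 without WT 6, 5 without WT 4 and 10 without KO 3. Mbp, a main protein of myelin, had 89847, 78621, 53017 and 99486 against 66310, 61163 and 21520 (-0.94, adjusted p = 0.0543), so KO 5 was lowest and KO 2 overlapped with the second batch. Of the 3 that fell, Aspa had -0.90 (adjusted p = 0.0294) and Hapln2 -1.03 (0.0334), and both calls were lost without WT 1 or without KO 5.

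**Figure D3:**
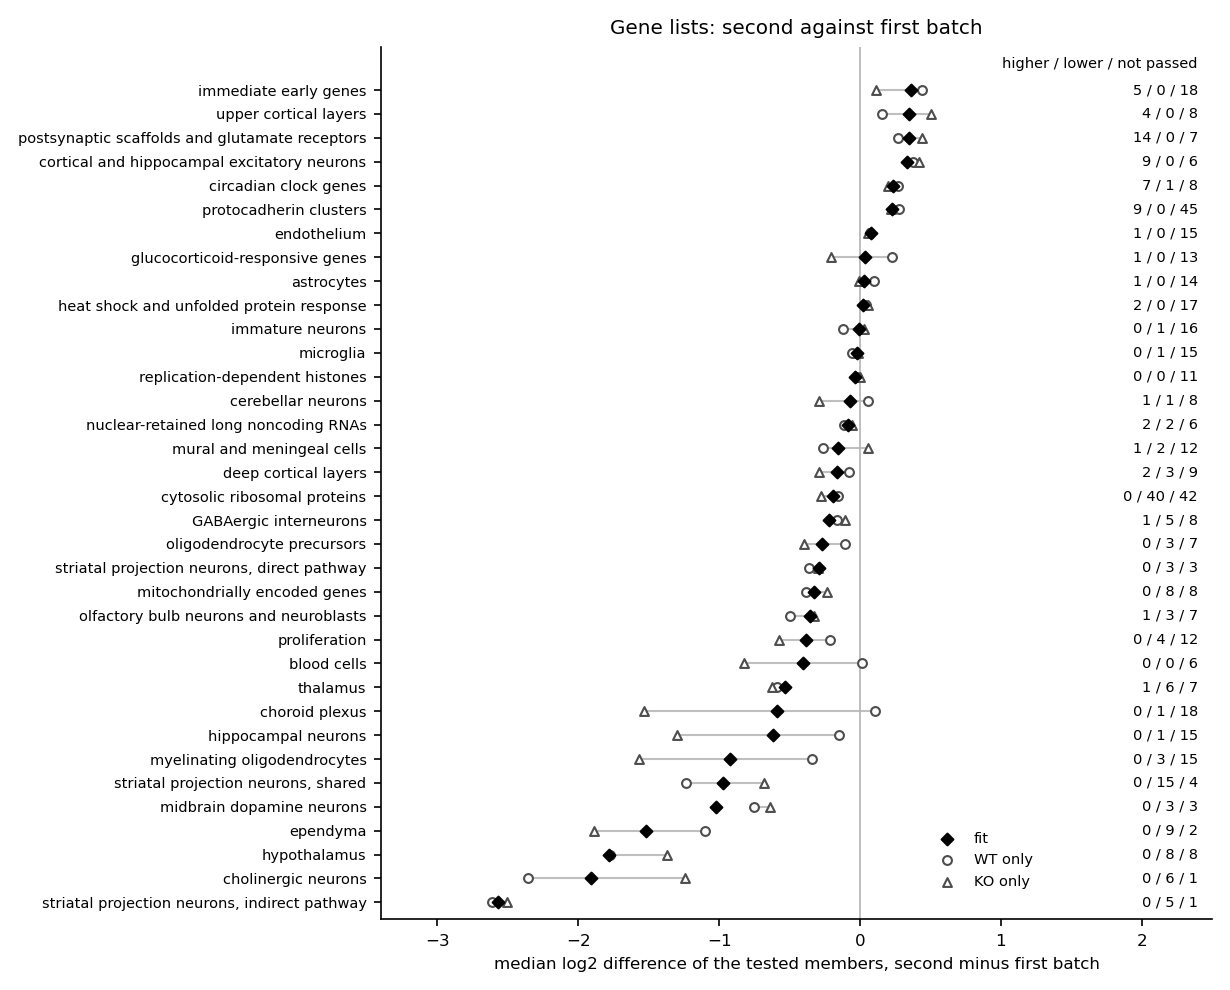
Median log2 difference, second minus first batch, of each gene list: diamonds for the fit over the 7 libraries, circles for the 4 WT libraries alone and triangles for the 3 KO libraries alone, with the counts of members higher, lower and not passed. Ppp1r1b, Drd1 and Neurod6 and the liver lists are left out. The indirect-pathway, cholinergic, hypothalamic and ependymal lists lie between -2.57 and -1.52, and the excitatory and postsynaptic lists at 0.33 and 0.35. Some lists, among them the cholinergic, hypothalamic and ependymal ones, include members that reached the mean of 10 only through the first batch.

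Transcripts made in the liver were read in all 3 second-batch libraries and were at or near 0 in the first batch. Alb, the serum albumin gene, had 0, 4.5, 2.2 and 3.4 against 1446, 1223 and 1418 (8.92, SE 0.51). It reached the mean of 10 only through the second batch and is given with no test. Serpina3k, a serum protease inhibitor, had no read in the first batch and 156, 138 and 149 in the second, at least 178-fold higher when a floor of 3 reads over the 4 first-batch libraries is used. Apoa1, the main protein of high-density lipoprotein, had 14.6, 8.9, 15.2 and 9.0 against 138, 113 and 126 (3.33, SE 0.26, adjusted p = 0.000295).

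The liver lists were drawn up after the values were seen. Of their 40 tested genes 32 reached the mean of 10 only through the second batch and so had to differ, and their counts are not read. The other 8 had a mean of at least 10 in both batches, and 6 of them rose (12.5% of all genes tested). Since the lists were drawn up from these values, that count is description only. Cyp2e1, Apob, Fabp1 and Mup3 are among the 32, so they are given with no test. Cyp2e1, a cytochrome P450, had 3.4, 3.4, 4.3 and 2.3 against 147, 98.2 and 126 (4.85), and Apob was higher by 4.06. Fabp1, a fatty acid binding protein, was at 0 in the first batch and at least 62.3-fold higher in the second. Mup3 had 3 reads in the first batch and 286 in the second, a ratio of 124 with a 95% interval of 41.9 to 604 from counting error. Mup and Serpina1 genes belong to families of near-identical copies, so reads may be split among members. C3 and Apoa2, which the brain also transcribes, rose by 2.64 and by 2.23.

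The same transcripts followed the batch mark outside the 7 libraries. Alb lay between 0 and 4.47 in all 12 first-batch libraries and between 865 and 1446 in 11 of the 12 second-batch libraries, and it was 0 in the other, WT 4 at P25. Apoa1 ran from 6.24 to 19.7 in the first batch and from 65.0 to 138 in those 11, with 4.09 in WT 4 at P25. None of 6 tested blood cell genes was called in limma, beside 19% of all genes tested. The summed level of the blood cell genes ran from 4234 to 17082 in the first batch and from 4395 to 6603 in the second. The source of the liver transcripts was not tested.

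Other transcripts were high in the first batch and low or at 0 in the second. The sequences of 3 of them are printed here because they are short, and because the identity of 2 of them bears on what their counts mean. Mir6236 is a microRNA locus on chromosome 9, at chr9:110281353-110281371 on the + strand for the mature form (RefSeq, GRCm38.p6), with bases 2 to 8, the seed, in capitals. Gm23935, at chr16:11144125-11144181 on the + strand within Zc3h7a, and Gm24270, at chr9:56223715-56223771 on the - strand within Peak1, are annotated as microRNA genes (GENCODE M21, GRCm38) and have the same 57 bases.
Mir6236: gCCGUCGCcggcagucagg
Gm23935: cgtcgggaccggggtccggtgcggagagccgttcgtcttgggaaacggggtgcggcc
Gm24270: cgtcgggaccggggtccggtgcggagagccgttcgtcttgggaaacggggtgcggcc

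Mir6236 had 280, 309, 247 and 312 in the first batch and 0 in the second, at least 265-fold lower. In the P25 libraries of the first batch it ran only from 3.28 to 24.9, and it was 0 in all 12 second-batch libraries. Gm23935 had 26801, 27143, 22559 and 22521 against 4993, 2189 and 3126 (-2.96, SE 0.23, adjusted p = 0.000295), and Gm24270 had 807, 863, 663 and 781 against 174, 77.6 and 110 (-2.78). Since their sequences are identical, reads cannot be assigned to one of them with certainty. The reads counted at a microRNA gene in a library of long RNA need not come from the mature form.

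Gm14667, a processed pseudogene on the X chromosome, had 162, 133, 167 and 183 against 0, at least 149-fold lower, and it ran from 56.5 to 204 in all 12 first-batch libraries and was 0 in all 12 of the second. Lars2, the mitochondrial leucyl-tRNA synthetase, had 73536, 80955, 62530 and 67184 against 20606, 8351 and 12298 (-2.49, SE 0.25, adjusted p = 0.00103). Over all libraries it ran from 54875 to 86085 in the first batch and from 5650 to 20606 in the second. Reads counted at Lars2, Mir6236, Gm23935 and Gm24270 were not compared with ribosomal RNA sequence. The value of Lars2 thus need not measure its messenger RNA, and its source was not tested. CT010467.1, annotated as ribosomal RNA, had 28665, 27151, 29009 and 20855 against 5076, 8565 and 7552 (-1.93, adjusted p = 0.000868). Lrrc17, a gene for a secreted leucine-rich repeat protein, had 572, 452, 352 and 368 against 15.1, 14.5 and 15.7 (-4.78, SE 0.17, adjusted p = 5.422e-06).

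Rn7sk, a nuclear RNA without a poly(A) tail, had 188, 135, 122 and 128 against 28.2, 43.6 and 31.5 (-2.07, SE 0.20, adjusted p = 0.000884). It lay between 109 and 367 in the 12 first-batch libraries and between 18.8 and 94.8 in the 12 of the second. It was the only member of 10 structured RNAs without poly(A) tails to reach a mean of 10. Replication-dependent histone genes, whose messages also lack the tail, gave 0 calls in limma among 11 tested, beside 19% of all genes tested.

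**Figure D4:**
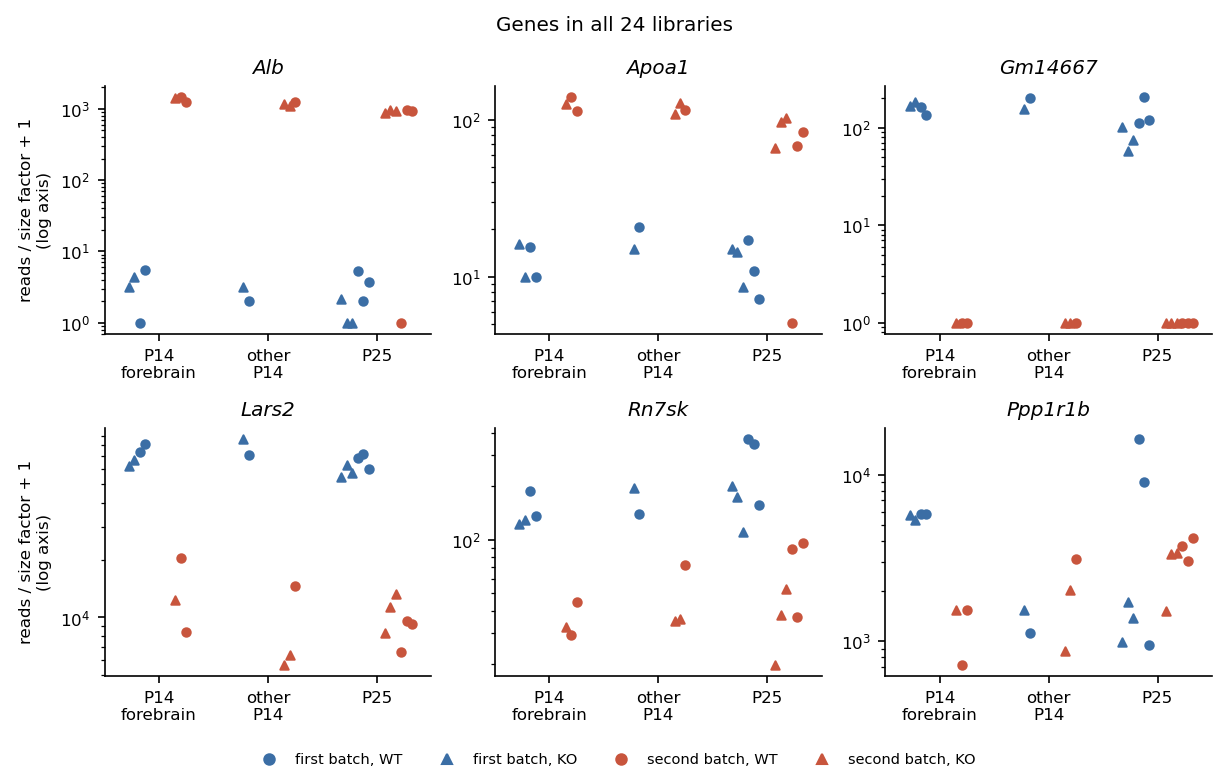
Value + 1 (log axis) of 6 transcripts in all 24 libraries, grouped by age and batch, with the 7 P14 forebrain libraries set apart. Alb and Apoa1 are high in second-batch libraries except WT 4 at P25, and Gm14667, Lars2 and Rn7sk are high in first-batch libraries at both ages, while Ppp1r1b spreads widely within both batches at P25.

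Genes that separated the batches again in libraries the rule had left out were a minority. In the 5 other P14 libraries and in the 12 P25 libraries, in the same direction in both sets, 135 of the 2217 called rises (6.09%) and 141 of the 1154 called falls (12.2%) had batches that did not overlap. Of all genes tested 2.79% and 2.97% did so. Without P14 WT 5 the counts were 205 and 183, and without P25 WT 4 they were 179 and 147, where 1372 and 1107 of all genes tested did so in either direction, against 1023 with both. Those libraries hold other brain regions, and regional markers differ between the batches there as well.

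Of 82 cytosolic ribosomal protein genes 40 fell and none rose (6.5% and 12.5% of all genes tested), with a median of -0.19. Rpl36a had 2777, 2781, 2666 and 2832 against 1850, 1619 and 1640 (-0.71, SE 0.06, adjusted p = 0.000525), and Rpl27a and Rpl23 fell by 0.42 and by 0.44. The count was 15 without WT 1 and 8 without KO 5. Mitochondrially encoded genes fell at 8 of 16 and rose at none, with a median of -0.33, and fell at 4 without WT 1. Where both batches had a mean of at least 10, 8 of 15 fell. The cytochrome oxidase genes mt-Co2 and mt-Co3 had 355, 281, 425 and 401 against 76.6, 81.2 and 139 (-1.82), and 178, 108, 207 and 163 against 28.2, 20.6 and 32.5 (-2.47). Of the 20-base words of these genes 99.5% (mt-Co2) and 99.9% (mt-Co3) also occur in nuclear pseudogenes, Gm28661 and Gm28437, so their counts are what the authors' counting left to them and are uncertain.

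Transcript length went with the direction of the difference. From the shortest to the longest quintile of transcripts, 3.48%, 4.64%, 7.98%, 15.5% and 31.0% of genes were called higher in the second batch, and 10.5%, 6.99%, 6.85%, 4.58% and 3.54% lower. The median difference went from -0.0859 to 0.139. Mean value went with it as well, with medians from -0.129 in the lowest quintile to 0.121 in the highest. Between those quintiles, genes called higher went from 2.45% to 33.2%, and genes called lower from 7.18% to 4.96%. The shares set beside the gene lists are over all genes tested and were not matched for length or mean value. In quintiles of GC content the medians went from -0.0036 to 0.0535. The length pattern had the same direction in the other P14 libraries (-0.0043 to 0.108) and at P25 (-0.102 to 0.0714).

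**Figure D5:**
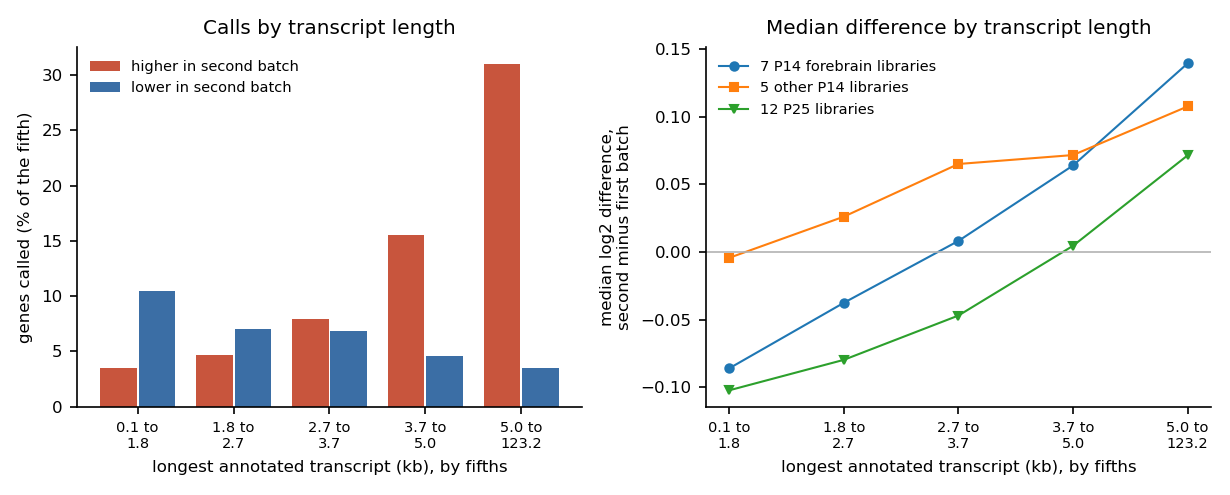
Genes in quintiles of transcript length. One panel gives the percentage called higher or lower in the second batch, and the other the median log2 difference in the 7 forebrain libraries, the 5 other P14 libraries and the 12 P25 libraries. Calls of higher genes go from 3.48% in the shortest quintile to 31.0% in the longest, and the medians rise with length in all 3 sets.

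Of 9 library measures 5 had batches that did not overlap. Genes with at least 1 read numbered 25297 to 26057 in the first batch and 24574 to 24856 in the second. Mitochondrially encoded reads made up 4.03% to 4.52% against 3.46% to 3.64%, ribosomal protein reads 1.13% to 1.24% against 0.899% to 1.02%, and the top 10 genes 4.74% to 5.30% against 4.33% to 4.56%. The length contrast, the median centred log2 level of the longest quintile of genes less that of the shortest, was -0.122 to -0.0743 against 0.111 to 0.136. Each of the 5 gave p = 0.0571 in a two-sided exact permutation test (0.103 after adjustment over the 9), which is the smallest p that 35 arrangements of 4 against 3 allow. Total reads ran from 28965443 to 35155485 and overlapped (exact permutation p = 0.286).

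The share of the batch difference that lay in each group of genes was counted. Of the squared batch difference summed over all 17750 genes tested, 2.45% lay in the 33 striatal genes and 6.86% in all 168 genes of the neuron and region lists. Of the 168, 19 were higher and 59 lower, beside 12.5% and 6.5% of all genes tested. Ppp1r1b and Drd1 are among the 33 and Neurod6 among the 168. Those genes framed the comparison, so these shares and counts are description. The 40 liver genes, 32 of them tested only through their second-batch values, held 19.1%. A further 818 genes beyond these lists held 8.61%, with 131 higher and 137 lower. They separated the batches in the 5 other P14 libraries and in the 12 P25 libraries, in the direction of their difference in the 7. Their choice thus used the 7 libraries in part. The 16724 genes in none of these sets held 65.5%, with 2029 higher and 958 lower. Called genes held 72.3% of the whole sum, which also holds the scatter of genes that were not called. Marker lists sample a tissue and do not cover its transcriptome, so 6.86% is the share of the listed genes and not of regional content.

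Striatal level and transcript length ran nearly in parallel with batch. The mean of the striatal lists (Ppp1r1b and Drd1 included) shared 95.7% of its spread with batch, and the length contrast 98.1%. With either as a covariate no gene passed (1280 and 434 at an unadjusted p below 0.05 in limma, against 6012 in the fit without them). Of the 3371 called genes 89.6% kept their sign with the striatal list, and the median size of their differences was 129% of that without it. With the length contrast 50.5% kept their sign and the median size was 1.37%. With the cortical list (Neurod6 included), which shared 67.7%, 1 gene passed, 89.6% kept their sign and the median size was 76.6%. The choroid plexus list shared 5.21% and left 2813. Striatal content, transcript length bias and batch cannot be told apart in these 7 libraries, and the pattern by mean value was not tested with a covariate. Among the 10192 genes outside all lists and in the middle 3 quintiles of length, pseudogenes left out, 1498 were called, 935 higher and 563 lower. Of all genes tested 19% were called. Over those 3 quintiles calls of higher genes still went from 4.64% to 15.5% of all genes tested, and the lists do not cover the tissue.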

How the data were processed

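RNA-seq of mouse brain was analysed in 7 libraries of 24. A TruSeq RNA kit, version 2, was used for the libraries, per the labels' protocols. Trimmomatic 0.35, TopHat2 2.1.0, HTSeq and DESeq2 are named with GRCm38, per the submitters' processing notes. Strand setting, annotation release and filters are not given in the sources used. Besides Six3 and Penk, exons of antisense genes overlap Ppp1r1b, Syndig1l, Hydin, Sv2b, Homer2, Grin2b, Shank1, Shank3, Cry2, Bhlhe41, Slc1a2, Dlx6, Lrrc17, Ahsg and CT010467.1. Their counts carry the same limit. What the authors deposited is a normalised signal for each gene, whose values fit reads over a library's own size factor (0.825 to 0.992 in these 7). Whole reads were recovered from the deposited signal: 100% of values came out whole within 0.01. All columns of the table were mapped to a library by its label, and 0 were left unused. Of 46078 gene IDs 98.0% had a symbol in GENCODE M21 (GRCm38).

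Batch differences (second minus first) were tested with limma 3.58.1 (R 4.3.3; trended empirical Bayes) on log2(value + 1) for genes with a mean of at least 10, with genotype as covariate, 4 residual degrees of freedom and Benjamini-Hochberg adjustment at 0.05. Adjusted p-values of genes come from that fit unless the interaction is named, and fold changes understate those of low genes. On the recovered reads edgeR 4.0.16 called 3198 genes, DESeq2 1.42.0 called 3106 and limma-voom 3159. The interaction of genotype and batch used 4 cell means and 3 residual degrees of freedom, with KO 5 assumed to vary like the others. Library measures were compared with exact permutation tests (scipy 1.17.1). The tests were tried on simulated data. Intervals and floors cover counting error only.

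The libraries, gene lists and tests were chosen with earlier results of these data known. The rule for named genes took the 10 largest rises and 10 largest falls with a mean of at least 100 in the higher batch, up to 3 genes per list with a mean of at least 50, Shank2, the markers and the rule genes. Other named genes were chosen after their values were seen. Some genes that the rule or the lists hold are not reported here. Also examined, with their counts of members higher and lower among those tested: cerebellar neurons (1 and 1 of 10), olfactory bulb (1 and 3 of 11), mural and meningeal cells (1 and 2 of 15), oligodendrocyte precursors (0 and 3 of 10), pituitary (0 and 1 of 3), glucocorticoid-responsive genes (1 and 0 of 14), heat shock and unfolded protein response (2 and 0 of 19), immature neurons (0 and 1 of 17), proliferation (0 and 4 of 16), nuclear-retained RNAs (2 and 2 of 10), hindbrain and serotonin neurons (0 and 0 of 1) and protocadherin clusters (9 and 0 of 54, with 3 and 2 higher without WT 1 and KO 5). Of these, the lower counts of proliferation were 0 to 2 without WT 1, WT 2, KO 2, WT 6 or KO 5, and that of oligodendrocyte precursors 1 without WT 1, WT 6 or KO 5. The 1 lower pituitary gene reached the mean of 10 only through the first batch. The counts of all these lists stand beside 12.5% higher and 6.5% lower over all genes tested. Other settings were another scaling, pseudocount, filter, covariate, set of libraries and each library left out.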

Additional observations from a re-analysis of the deposited data

Results flagged for a closer look

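Among 96 groups of 4 first-batch values examined, 10 had 1 library far from the other 3, where chance flags about 1 in 20. Dlk1 was 823.4 in WT 1, with the others at 195.3 to 293.7. KO 3 stood apart for Rsph1 (103.9, others 112.9 to 113.9), Sv2b (17880.7, others 14897.7 to 15087.4), Slc17a7 (57427.9, others 47097.3 to 48805.4), Pde10a (4735.5, others 5628.1 to 5798.7) and Apoa2 (11.3, others 24.6 to 26.9). KO 3 was thus highest at 2 cortical genes and lowest at the striatal gene Pde10a. KO 2 stood apart for Pdyn (1260.9, others 1161.5 to 1164.1). Single reads set the rest: Serpina1e was 1.1 in KO 2 and Ahsg 1.1 in KO 3 with 0.0 in the others, and Mup3 was 0.0 in KO 2 with 1.1 in the others.

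The batch difference depended on genotype at 2 genes in limma (0.0113% of genes tested, 969 at an unadjusted p below 0.05). C1ql2, a synaptic protein of hippocampal mossy fibres, had 407.3 and 415.7 in the WT libraries of the second batch and 13.6 in KO 5, a difference of -4.77 (adjusted p = 0.00194). Prph, a neuronal intermediate filament, had 340.8, 410.8 and 50.4 (-2.94, adjusted p = 0.0306). In the first batch C1ql2 ran from 196.6 to 244.2 and Prph from 151.9 to 168.2. Both calls rest on the single library KO 5, and the count went from 1 to 22 when other libraries were left out.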

How the results depend on the processing

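No paired analysis was possible because no replicate number and no name prefix is shared between the batches. Under the other tools, TMM scaling, pseudocounts of 0.1 and 5, no filter, a mean of at least 50 and no genotype covariate, the count of genes called for batch stayed between 2976 and 3383. It was 635 with the oligodendrocyte list as covariate, 1363 with the endothelium list, 369 with immediate early genes, 1777 with the GC contrast, 1950 with total reads, 1 with the cortical list and 0 with the striatal list or the length contrast. It was 351 over all 12 P14 libraries, 972 in WT alone, 339 in KO alone and 1498 among the genes outside the lists and in the middle length quintiles, a setting added after seeing the data. Leaving out 1 library gave 1013 to 3137. The median of all 33 striatal members, markers included, was -0.007 with its own list as covariate, -1.185 with oligodendrocytes, -2.613 with length, -0.411 over all 12 P14 libraries and -1.233 in WT alone, and from -1.233 to -0.868 without 1 library. Genotype called 0 genes with no batch term and 0 to 1 without 1 library. The interaction called 1 with edgeR and 1 to 22 without 1 library; it could not be fitted without KO 5.

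Single genes reversed in these fits, and apart from the covariate's own overlap with batch the cause was not tested. With the length contrast: Shank2 -0.583, Hydin 0.368, Ak7 5.492, Mef2c -0.356, Kcnh5 -0.361, Cux2 -1.82, Pcp4 0.163, Dlg2 -0.023, Egr3 -0.976, Fosb -0.699, Cry2 -0.051, Bhlhe41 0.983, Aspa 1.98, Hapln2 1.658, Rpl23 0.1, mt-Co3 0.286, Slc17a7 -0.022, Shank1 -0.298, Shank3 -0.721, Dlg4 -0.347, Mbp 3.078, Pdyn -1.074 and Gm28437 0.874. With the striatal list: Ppp1r1b 0.669, Neurod6 -1.034, Tac1 0.317, Isl1 4.774, Six3 2.642, Chat 2.102, Avp 3.047, Hap1 0.42, Trh 1.215, Gad1 0.038, CT010467.1 0.514, Pde10a 0.211, Ttr 0.611, Ptpn5 0.323 and Dlx6 0.171. With the cortical list Fosb was -0.313, with total reads Ttr 0.147 and in KO alone Ptpn5 0.035. Over all 12 P14 libraries Gad1 was 0.312, Shank3 -0.013, Pdyn -0.042, Pbx3 0.539 and Dlx6 0.832. No named gene reversed when 1 library was left out, while 28 such fits lost a call, 5 gained one and 576 did neither.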
